A study of Mus musculus and Homo sapiens with 22 samples.

Results

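The cytochrome P450 genes are the protein-coding genes whose symbol is Cyp in mouse, or CYP in human, followed by a digit. Cyp7a1, Cyp8b1 and Cyp27a1, which make bile acids, were left out by the rule. The rule found 97 mouse genes among 21938 protein-coding genes and 54 human genes among 20033. All 97 mouse genes and 53 of the 54 human genes have an annotated start of a protein-coding transcript and could be counted, against 21853 mouse and 19689 human genes with such a start. CYP2D7 has none. The rule used symbols and no measured value.

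P450 enzymes are haem proteins, most of them held in the membrane of the endoplasmic reticulum, that insert an oxygen atom into their substrates with electrons from a partner reductase. Families 1 to 3 mainly oxidise drugs and other foreign compounds, and family 4 oxidises fatty acids. The remaining families make or break down steroid hormones, sterols, vitamin D and retinoic acid. Many family 2, 3 and 4 genes lie side by side in clusters of close copies, and in mouse these clusters have grown far larger than in human. PROX1 is a homeobox transcription factor present in hepatocytes.

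PROX1 was mapped by CUT&RUN, in which an antibody tethers a nuclease that cuts out the DNA around the bound protein. Endogenous PROX1 was mapped in liver of wild-type C57BL/6J mice of 2 to 3 months (samples labelled hepatocyte), with anti-PROX1 in 5 samples and IgG in 5. FLAG-tagged Prox1 was mapped in primary embryonic fibroblasts (MEF) of C57BL/6N mice and FLAG-tagged PROX1 in the human hepatocellular carcinoma line Hep3B, each with anti-FLAG in 3 samples and IgG in 3. MEF carried rtTA and tetO-FLAG-Prox1 lentivirus and Hep3B a pLIX PROX1 lentivirus kept under puromycin, and both received doxycycline at 2 µg/ml for 2 days. There was 1 pooled peak list for each anti-PROX1 or anti-FLAG group, with 50159 liver, 40531 MEF and 14369 Hep3B peaks, so no value per sample, no depth and no spread between replicates can be given. The smallest peak area was 500 in the liver list and 200 in the others, and the values are not scaled between lists. The lowest −log10 q was 4.03 in liver, 1.16 in MEF and 1.22 in Hep3B. Between liver and the other lists, cell type, antibody, the origin of the factor (endogenous or added) and the mouse strain or the species change together. MEF and Hep3B share the antibody and an added factor but differ in cell type and species. The parts of these differences cannot be told apart. Expression was not measured, so a summit at a gene says nothing here of its transcript level.

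A peak's summit, its highest point, was assigned to a gene when it fell within 1 kb or 10 kb of a protein-coding start, or within the gene body. Strength is given as the −log10 of the p-value at the summit and as the percentile of that value among all peaks of the same list. No member set was tested against other genes. Each count is set beside the share of all protein-coding genes counted in the same way. Intervals are 95% Wilson intervals, which cover counting error only, and neighbouring copies in a cluster are not independent draws.

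The DNA under some of the summits is shown first, chosen to show a CpG-poor and a CpG-rich kind of sequence and copies that share words. Each run covers up to 75 bases on either side of the summit, on the strand of the gene from 5′ to 3′, and stops where a UTR begins. Capitals mark AGGTCA, the half-site of many nuclear receptors, or its complement TGACCT, and CAAAGTCCA, a word bound by the liver factor HNF4A, or its complement TGGACTTTG. Mouse coordinates are mm10 and human coordinates hg38. The first set holds liver summits with high −log10 p at genes of different families, together with the ethanol-oxidising Cyp2e1. They held 0 to 2 CpG dinucleotides each.
Cyp17a1 (chr19:46673280-46673430, minus strand): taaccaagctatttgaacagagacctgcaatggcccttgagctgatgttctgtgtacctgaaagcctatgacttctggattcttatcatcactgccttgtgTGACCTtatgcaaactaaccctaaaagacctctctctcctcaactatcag
Cyp3a13 (chr5:137921773-137921923, minus strand): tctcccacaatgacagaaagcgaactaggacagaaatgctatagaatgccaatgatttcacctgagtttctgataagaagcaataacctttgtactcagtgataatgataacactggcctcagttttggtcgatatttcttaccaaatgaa
Cyp2a12 (chr7:27028947-27029089, plus strand): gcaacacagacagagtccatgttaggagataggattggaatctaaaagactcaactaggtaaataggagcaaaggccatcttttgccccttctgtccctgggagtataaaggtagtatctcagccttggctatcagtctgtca
Cyp2f2 (chr7:27119697-27119847, plus strand): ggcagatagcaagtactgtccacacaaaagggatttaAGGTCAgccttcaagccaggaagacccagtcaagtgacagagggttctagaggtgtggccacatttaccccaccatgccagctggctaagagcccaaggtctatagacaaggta
Cyp1a2 (chr9:57683712-57683862, minus strand): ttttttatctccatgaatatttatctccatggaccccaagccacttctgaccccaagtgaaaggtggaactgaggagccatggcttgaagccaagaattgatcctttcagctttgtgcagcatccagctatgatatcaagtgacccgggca
Cyp2e1 (chr7:140763547-140763697, plus strand): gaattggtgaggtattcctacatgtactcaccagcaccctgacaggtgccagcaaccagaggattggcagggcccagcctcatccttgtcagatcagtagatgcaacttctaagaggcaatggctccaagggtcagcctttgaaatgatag

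The next set is the Cyp2c starts whose liver summit window held CAAAGTCCA. Cyp2c40 and Cyp2c69 are close copies, and their windows share an identical run of 72 bases that includes the word. The longest run shared with Cyp2c40 was 21 bases in Cyp2c68 and 9 bases, the length of the word, in Cyp2c70.
Cyp2c40 (chr19:39812836-39812986, minus strand): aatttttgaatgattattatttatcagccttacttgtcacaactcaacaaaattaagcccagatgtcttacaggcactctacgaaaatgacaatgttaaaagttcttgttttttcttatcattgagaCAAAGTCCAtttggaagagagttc
Cyp2c69 (chr19:39886820-39886970, minus strand): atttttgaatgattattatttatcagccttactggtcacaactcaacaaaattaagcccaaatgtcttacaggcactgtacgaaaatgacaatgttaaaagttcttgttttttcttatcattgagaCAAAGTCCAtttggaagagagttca
Cyp2c68 (chr19:39741083-39741233, minus strand): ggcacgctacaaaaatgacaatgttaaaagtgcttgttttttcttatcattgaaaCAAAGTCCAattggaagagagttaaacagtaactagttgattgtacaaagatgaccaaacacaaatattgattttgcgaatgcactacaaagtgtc
Cyp2c70 (chr19:40187287-40187411, minus strand): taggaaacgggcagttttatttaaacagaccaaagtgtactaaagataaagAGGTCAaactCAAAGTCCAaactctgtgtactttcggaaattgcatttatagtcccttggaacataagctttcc

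Cyp3a57 and Cyp3a59 held AGGTCA followed by its complement TGACCT, in both cases upstream of the start. Their longest identical run was 17 bases.
Cyp3a57 (chr5:145345089-145345239, plus strand): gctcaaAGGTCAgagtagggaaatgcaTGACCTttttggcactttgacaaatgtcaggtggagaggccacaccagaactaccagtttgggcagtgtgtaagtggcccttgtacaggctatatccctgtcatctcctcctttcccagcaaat
Cyp3a59 (chr5:146078972-146079122, plus strand): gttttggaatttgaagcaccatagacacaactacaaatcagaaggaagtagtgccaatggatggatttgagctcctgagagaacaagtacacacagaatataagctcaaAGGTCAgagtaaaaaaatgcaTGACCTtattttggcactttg

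Cyp4a12a and Cyp4a12b, 2 near-identical fatty acid hydroxylases, are shown because reads are hard to place between them. An identical run of 60 bases joins their summit windows.
Cyp4a12a (chr4:115298915-115299045, plus strand): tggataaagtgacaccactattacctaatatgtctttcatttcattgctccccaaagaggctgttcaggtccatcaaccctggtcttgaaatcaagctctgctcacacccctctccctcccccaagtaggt
Cyp4a12b (chr4:115411455-115411605, plus strand): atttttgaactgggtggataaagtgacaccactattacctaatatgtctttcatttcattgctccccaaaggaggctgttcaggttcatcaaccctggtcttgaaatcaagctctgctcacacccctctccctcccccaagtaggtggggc

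The last set gives the MEF and Hep3B summits at Cyp20a1, a P450 of unknown substrate, and Cyp46a1, the cholesterol hydroxylase of neurons. These windows held 11 to 21 CpG dinucleotides and none of the marked words. They were chosen as CpG-rich, and the lists overlap: the 46 liver windows read in this way held 0 to 13 CpG (median 1), the 10 MEF windows 1 to 21 (median 9) and the 8 Hep3B windows 10 to 15 (median 11.5). Liver windows at Cyp2u1, Cyp24a1 and Cyp4v3 held 13, 11 and 10, and MEF windows at Cyp4f16, Cyp2s1 and Cyp4f13 held 1, 1 and 2. The mouse and human windows shared no identical run longer than 9 bases at Cyp20a1 and 10 bases at Cyp46a1. The first and second runs are from MEF and the others from Hep3B.
Cyp20a1 (chr1:60343430-60343580, plus strand): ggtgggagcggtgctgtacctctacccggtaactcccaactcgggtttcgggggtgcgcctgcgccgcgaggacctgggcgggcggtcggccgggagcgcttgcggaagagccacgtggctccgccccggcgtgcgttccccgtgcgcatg
Cyp46a1 (chr12:108333986-108334136, plus strand): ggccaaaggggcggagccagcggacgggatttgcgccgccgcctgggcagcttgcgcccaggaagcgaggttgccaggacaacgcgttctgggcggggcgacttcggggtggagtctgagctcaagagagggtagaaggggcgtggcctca
CYP20A1 (chr2:203239092-203239242, plus strand): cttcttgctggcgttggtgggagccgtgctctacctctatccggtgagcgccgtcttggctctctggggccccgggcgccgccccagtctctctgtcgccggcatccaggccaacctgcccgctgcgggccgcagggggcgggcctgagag
CYP46A1 (chr14:99684065-99684215, plus strand): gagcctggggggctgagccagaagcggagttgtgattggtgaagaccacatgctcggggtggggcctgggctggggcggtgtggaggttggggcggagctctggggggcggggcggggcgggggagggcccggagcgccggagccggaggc

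In liver, P450 genes had a summit near their start more often than protein-coding genes at large, whereas in MEF and Hep3B they had one less often. Within 1 kb, 49 of 97 mouse members (50.5%, interval 40.7 to 60.3%) had a liver summit, against 26.7% of all genes. The MEF list placed a summit within 1 kb of 14 of the same 97 members (14.4%, interval 8.8 to 22.8%), against 55.4% of all genes. In Hep3B, 8 of 53 human members (15.1%, interval 7.85 to 27.1%) had one, against 44.4%. All 3 intervals lay clear of the share over all genes.

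**Figure D1:**
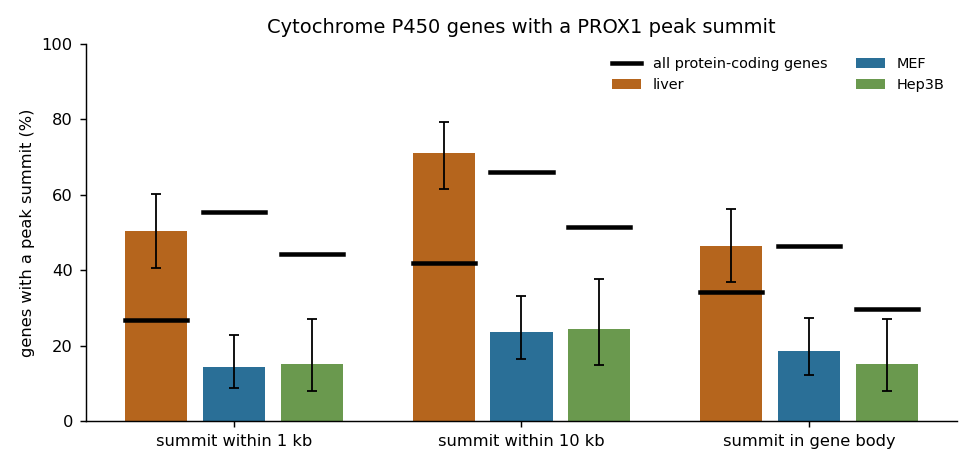
Share of P450 genes with a peak summit (%, vertical axis) for each window and list. Bars are members (97 mouse genes for liver and MEF, 53 human genes for Hep3B), error bars are 95% Wilson intervals, and thick black lines are all protein-coding genes. In liver the members' 50.5% within 1 kb stood above the line at 26.7%, and in MEF and Hep3B the members' 14.4% and 15.1% stood below lines at 55.4% and 44.4%.

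Wider windows kept this order. Within 10 kb, 69 members (71.1%, interval 61.4 to 79.2%) had a liver summit, against 41.8% of all genes. In MEF the count was 23 (23.7%, interval 16.4 to 33.1%), against 66.0%, and in Hep3B it was 13 (24.5%, interval 14.9 to 37.6%), against 51.5%. Inside the gene body, 45 members (46.4%, interval 36.8 to 56.3%) held a liver summit, against 34.1% of all genes. For MEF the body count was 18 (18.6%, interval 12.1 to 27.4%), against 46.3%. For Hep3B it was 8 (15.1%, interval 7.85 to 27.1%), against 29.6%. The median distance from a member to its nearest liver summit was 967 bp, against 19534 bp over all genes. In MEF the median was 92680 bp for members and 400 bp for all genes, and in Hep3B it was 83335 bp for members and 7540 bp for all genes.

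At the 1 kb limit in liver, the last member inside was Cyp2c38, at 967 bp, and the first outside was the coumarin hydroxylase Cyp2a5, at 1167 bp. In MEF these were Cyp1b1, at 697 bp, and Cyp17a1, at 2082 bp. In Hep3B they were CYP26B1, at 749 bp, and CYP2W1, at 2086 bp. In each list 1 member, Cyp39a1 or CYP39A1, had a summit that was also within 1 kb of the start of another gene, Slc25a27 or SLC25A27, so that peak cannot be assigned to either alone.

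Most members fell on one side in the 2 mouse lists. Within 1 kb, 43 members (44.3%) had a summit in the liver list and not in the MEF list, a pattern shown by 4.37% of all genes. By contrast, 8 members (8.25%) had one in MEF and not in liver, the pattern of 33.1% of all genes. Summits in both lists were found at 6 members (6.19%, against 22.3% of all genes), and in neither at 40 (41.2%, against 40.3%). The 6 shared members were Cyp2r1, the vitamin D 25-hydroxylase, Cyp2u1, Cyp4f17, Cyp4v3, the oxysterol hydroxylase Cyp39a1 and the lanosterol demethylase Cyp51. At all 6 the liver and MEF peaks overlapped, by 75 bp at Cyp51 to 658 bp at Cyp4v3. Their summits lay from 56 bp apart, at Cyp2u1, to 572 bp apart, at Cyp51.

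**Figure D2:**
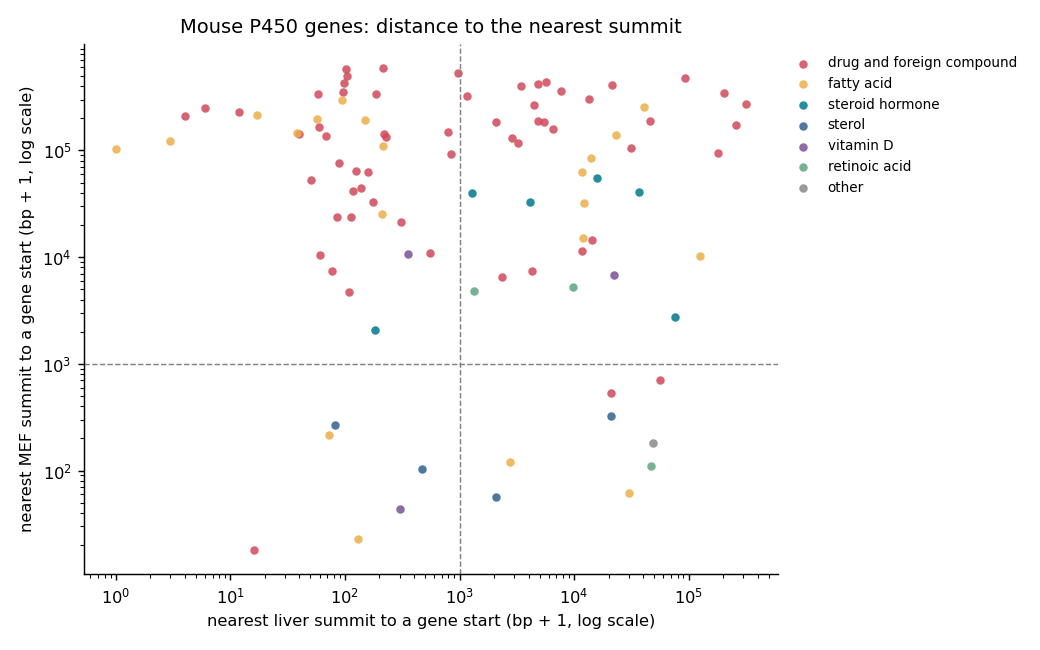
Distance from the start of each of the 97 mouse P450 genes to its nearest liver summit (horizontal) and nearest MEF summit (vertical), both in bp plus 1 on log scales, with colours for substrate class and dashed lines at 1 kb. The upper left part holds the 43 genes with a summit within 1 kb in liver and not in MEF, and the lower right part the 8 genes with the reverse.

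The 8 members with a MEF summit and no liver summit within 1 kb were Cyp1b1, Cyp2s1, Cyp4f13, Cyp4f16, Cyp7b1, Cyp20a1, Cyp26b1 and Cyp46a1. The liver summit nearest to Cyp1b1, an oxidase of oestrogens and polycyclic hydrocarbons found mainly outside the liver, lay 56029 bp from its start, while its nearest MEF summit was 697 bp upstream. For Cyp26b1, which clears retinoic acid, the nearest summit was 46746 bp away in liver and 110 bp inside the gene in MEF. Cyp20a1 had its nearest summit 49184 bp away in liver and 182 bp inside the gene in MEF. The oxysterol hydroxylase Cyp7b1 differed from these in having 10 liver summits inside its body. The liver summit nearest to its start was intergenic, 2065 bp upstream, while its MEF summit 56 bp upstream was among the weakest of that list (percentile 0.09).

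The substrate classes were set by family, not by the known substrate of each gene. The drug and foreign compound class holds every gene of families 1 to 3 except Cyp2r1 and CYP2R1. Cyp2u1 and CYP2U1 are thus among its genes with a MEF or Hep3B summit within 1 kb. The classes differed in size, from 1 gene to 60, and the smaller ones give little precision. Of 60 drug and foreign compound genes, 33 (55.0%) had a liver summit within 1 kb, and of 20 fatty acid genes, 11 (55.0%) had one. The vitamin D genes gave 2 of 3 and the sterol genes 2 of 4. Of 6 steroid hormone genes, 1 had such a summit, and none of 3 retinoic acid genes did. In MEF the order differed: 4 of 4 sterol genes had a summit within 1 kb, against 3 of 60 drug genes (5.0%), 4 of 20 fatty acid genes (20.0%) and none of 6 steroid hormone genes. In Hep3B, 3 of 4 sterol genes had one, against 2 of 23 drug genes (8.7%) and none of 12 fatty acid genes. Over all genes the share was 26.7% in liver, 55.4% in MEF and 44.4% in Hep3B. The classes also differ in promoter CpG ratio, defined below, with mouse medians of 0.726 for sterol and 0.133 for drug genes. Of all genes with a ratio of 0.5 or above, 86.0% had a MEF summit within 1 kb, against 20.0% below it. Whether substrate class matters apart from CpG content was not tested.

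The strongest member summit in liver was at Cyp17a1, which encodes the steroid 17-hydroxylase. It lay 183 bp upstream of the start with a −log10 p of 26.1, at percentile 99.8 of the list. Cyp3a13 followed, with a summit 229 bp upstream and a −log10 p of 24.6, then Cyp2a12, 68 bp upstream with 23.3, and Cyp2d40, 846 bp upstream with 21.7. Cyp2c50 (−log10 p 20.4, 787 bp upstream), Cyp1a1 (20.1, 551 bp downstream), Cyp2f2 (20.0, 137 bp upstream), Cyp2a22 (19.7, 11 bp downstream), Cyp1a2 (19.3, 84 bp upstream) and Cyp2c54 (18.5, 58 bp upstream) completed the top 10. These 10 therefore came from 6 subfamilies of drug-metabolising genes and from Cyp17a1. The Cyp1a1 summit, at position 57688479 of chromosome 9, is measured from the outermost start, at 57687928. Cyp1a1 has another start at 57697613, and the Cyp1a2 start lies at 57683703. Over the 49 members with a liver summit within 1 kb, the strongest summit had a median −log10 p of 14.8, ranging from 8.57 at Cyp2j6 to 26.1. The median was at percentile 73.1 of the list, while all 7253 liver peaks within 1 kb of a protein-coding start had a median percentile of 32.1. Above the 75th percentile of the list lay 23 of the 49 (46.9%), against 13.7% of all those promoter peaks. The 2 sides are not counted alike. Members enter once, by the strongest summit, which was picked from 2 or more at 12 of them, while the comparison takes every promoter peak.

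In MEF the strongest member summit was at Cyp2r1, 43 bp upstream, with a −log10 p of 9.16 (percentile 96.8), followed by Cyp46a1 with 8.46 and Cyp39a1 with 8.18. The next were Cyp51 (8.07), Cyp20a1 (8.06), Cyp2u1 (7.69), Cyp4f16 (7.36), Cyp4f13 (6.95), Cyp1b1 (6.3) and Cyp4f17 (5.73). The median over the 14 members was at percentile 76.4, against 67.4 for all MEF promoter peaks. In Hep3B the 8 members, in order, were CYP20A1 (9.06), CYP46A1 (8.84), CYP2R1 (7.71), CYP26B1 (7.3), CYP51A1 (7.08), CYP39A1 (6.79), CYP2U1 (5.18) and CYP1A1 (5.08). Their median percentile was 70.5, against 59.3 for all Hep3B promoter peaks. The −log10 p values of different lists have different ranges, reaching 61.7 in liver, 15.7 in MEF and 11.8 in Hep3B, and should not be set against each other.

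Liver summits sat just upstream of the members' starts. Of the 49 nearest summits, 43 (87.8%) were upstream, against 67.5% over all 5824 genes with a liver summit within 1 kb. The last 250 bp before the start held 36 of them (73.5%, against 47.4%). The median position was 101 bp upstream, with quartiles at 185 and 57 bp upstream. In MEF, 8 of 14 nearest summits (57.1%) were upstream, against 68.0% of all genes, and in Hep3B 7 of 8 (87.5%), against 77.3%. More than 1 liver summit fell within 1 kb of 12 members, among them Cyp1a1, Cyp2c23, Cyp3a11 and Cyp4a14.

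**Figure D3:**
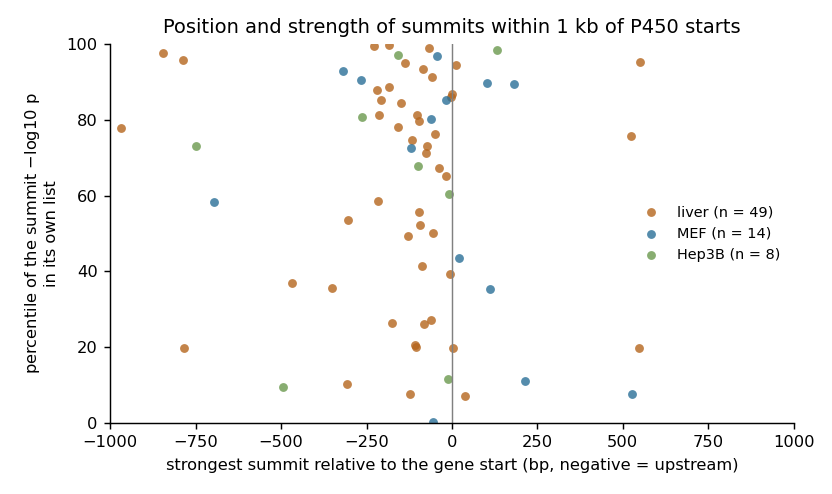
Position of the strongest summit within 1 kb of each P450 start (bp, negative values upstream) against the percentile of its −log10 p among all peaks of the same list, with 1 point per gene (49 liver, 14 MEF, 8 Hep3B). Most liver points lie in the 250 bp upstream of the start and range from percentile 7.1 to 99.8.

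Grouping mouse members whose bodies lie within 250 kb of each other gave 11 clusters that hold 75 of the 97 genes. The clusters differed widely in liver. Over all genes, 26.7% had a liver summit within 1 kb and 41.8% within 10 kb, and each cluster count below stands beside these shares. The Cyp2c cluster, a run of 14 genes over 1180 kb of chromosome 19 (chr19:39007019-40187333) whose products oxidise drugs and arachidonic acid, had 12 genes with a liver summit within 1 kb. The others, Cyp2c65 and Cyp2c66, had summits 2898 and 5413 bp upstream. The Cyp2d cluster on chromosome 15 had 6 of 8 genes within 1 kb and all 8 within 10 kb. The others there, Cyp2d12 and Cyp2d34, had summits 3208 bp downstream and 2063 bp upstream. Both genes of the Cyp1a cluster, Cyp1a1 and Cyp1a2, had a liver summit within 1 kb. These oxidise planar aromatic compounds.

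The Cyp4a/4b/4x cluster on chromosome 4 gave 6 of 10 genes within 1 kb. The split followed the subfamilies in part: Cyp4a10, Cyp4a12a, Cyp4a12b, Cyp4a14, Cyp4a31 and Cyp4a32, which hydroxylate the end of fatty acid chains, had a summit 16 to 212 bp upstream. Cyp4a29, Cyp4a30b, Cyp4b1 and Cyp4x1 had none within 10 kb, although Cyp4x1 held 1 inside its body. The Cyp4f cluster on chromosome 17 had 4 of 8 genes within 1 kb (Cyp4f14, Cyp4f15, Cyp4f17 and Cyp4f40), and Cyp4f16, Cyp4f37 and Cyp4f39 had none within 10 kb. Of these 3, Cyp4f37 and Cyp4f39 did hold liver summits inside the gene body.

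The Cyp3a cluster on chromosome 5 gave 4 of 8 genes within 1 kb (50.0%, against 26.7% of all genes). Cyp3a25, whose summit lay 3 bp upstream with a −log10 p of 17.1, and Cyp3a59, 220 bp upstream with 17.5, had the strongest. Cyp3a11, the main drug-oxidising 3a enzyme of mouse liver, had weaker summits at positions -57 and -783 from the start, with −log10 p of 9.06 and 9.75, and Cyp3a57 had one of 8.62. The members Cyp3a16, Cyp3a41a and Cyp3a44 had their nearest summit inside the gene, 4810, 5659 and 4849 bp from the start. Cyp3a41b had none within 10 kb.

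Chromosome 7 holds both Cyp2a and Cyp2b genes in 2 clusters. In the cluster with Cyp2f2, 3 of 8 genes had a liver summit within 1 kb: Cyp2a12, Cyp2a22 and the naphthalene-oxidising Cyp2f2. That is 37.5%, against 26.7% of all genes. All 3 summits were above percentile 94 of the list. Cyp2b19, Cyp2b23 and Cyp2t4 there had no summit within 10 kb. The other cluster had none of 5 genes within 1 kb and 4 within 10 kb. Its phenobarbital-inducible Cyp2b10 had a summit 2349 bp upstream with a −log10 p of 15.1, and Cyp2b9 and Cyp2b13 had summits 4470 and 6502 bp upstream with 10.3 and 14.7. Cyp2a4 had one 3469 bp upstream and Cyp2s1 none within 10 kb.

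The Cyp2j cluster on chromosome 4 was the emptiest of the large ones. Its 8 genes spread over 637 kb with 3 liver summits inside, or 4.71 per Mb, below the 18.4 per Mb of the whole genome. Summits within 1 kb were at Cyp2j5, 174 bp upstream with a −log10 p of 10.2, and at Cyp2j6, 39 bp downstream with 8.57. Cyp2j7, Cyp2j8, Cyp2j9, Cyp2j11, Cyp2j12 and Cyp2j13 had none within 10 kb, the nearest ranging from 31560 bp, at Cyp2j9, to 316963 bp, at Cyp2j7. Density in the Cyp2d cluster was 132 per Mb, with 56 summits in 424 kb, and in the Cyp2c cluster 30.5 per Mb, with 36 summits. Of the 56 summits in the Cyp2d span, 24 were over 10 kb from any member start, so many summits there cannot be assigned to a P450 gene by distance. The Cyp11b pair, which make adrenal steroids, had no liver summit inside its short span of 22.2 kb. The nearest summit to Cyp11b2 lay 1289 bp upstream and to Cyp11b1 15964 bp upstream.

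**Figure D4:**
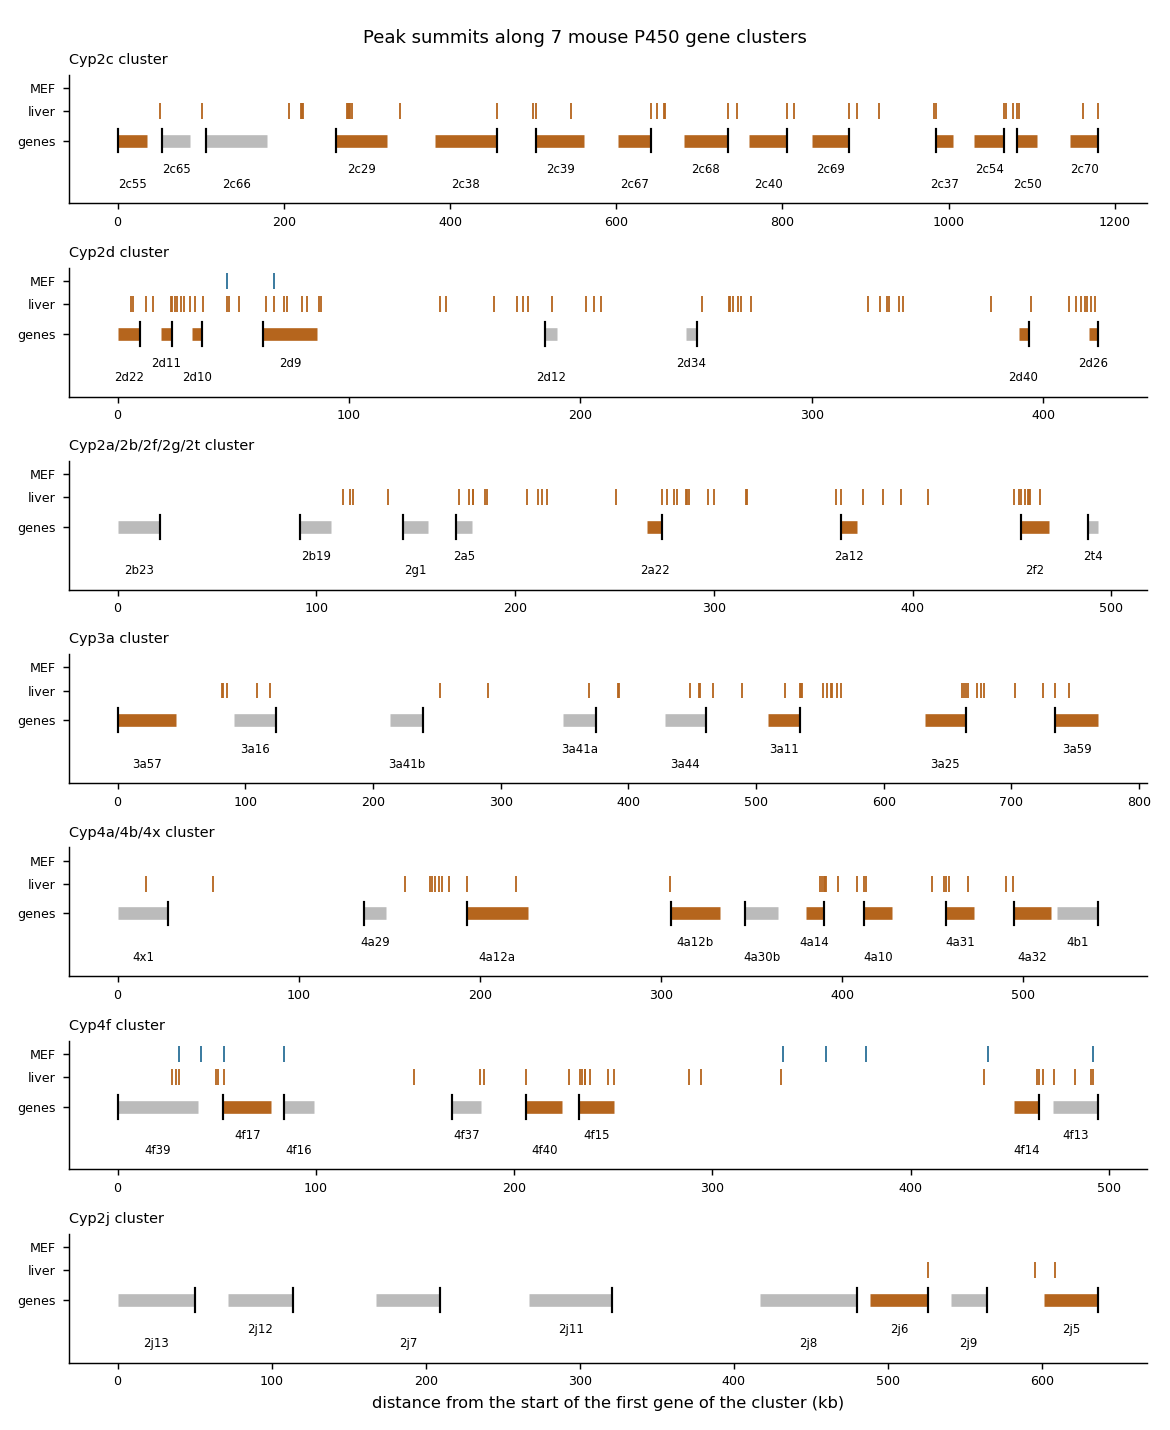
Liver (brown) and MEF (blue) peak summits along 7 mouse P450 clusters, in kb from the start of the first gene. Thick bars are genes, brown where a liver summit lies within 1 kb of a start and grey otherwise, and black ticks mark the outermost start. The Cyp2c, Cyp2a/2b/2f/2g/2t, Cyp3a, Cyp4a/4b/4x and Cyp2j rows hold no MEF summit, and the Cyp2j row holds 3 liver summits.

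Most mouse clusters held no MEF summit. No MEF summit lay inside the Cyp1a, Cyp2c, Cyp2j, Cyp3a, Cyp4a/4b/4x or Cyp11b cluster or the Cyp2a cluster that holds Cyp2f2. MEF had 14.9 summits per Mb over the whole genome. The Cyp4f cluster held 9 MEF summits, or 18.2 per Mb, which is not below that. The Cyp2a/2b/2s cluster held 4 (7.8 per Mb), the Cyp2d cluster 2 (4.72 per Mb) and the 16.0 kb Cyp26a/26c span 2. The Cyp1a and Cyp11b spans, of 26.9 and 22.2 kb, are so short that an empty one says little. Of the 75 clustered genes, 4 had a MEF summit within 1 kb, namely Cyp2s1, Cyp4f13, Cyp4f16 and Cyp4f17, against 39 in liver. The 22 genes outside clusters had 10 in each list (45.5%), against 26.7% of all genes in liver and 55.4% in MEF. These were not all the same genes. Cyp2e1 and Cyp17a1 were among those with a summit in liver only, and Cyp20a1 and Cyp46a1 among those in MEF only. The net difference in count between the mouse lists therefore lay in the clusters, while single genes also differed between the lists. In human, 9 clusters hold 33 of the 53 counted genes, and CYP1A1, with a Hep3B summit 494 bp upstream, was the only one of the 33 with a summit within 1 kb. In the CYP2A/2B/2F/2S cluster on chromosome 19, CYP2S1 had a Hep3B summit 3206 bp downstream and the other 5 genes had none within 10 kb. No Hep3B summit lay inside the CYP2C, CYP2D, CYP3A, CYP4A/4B/4X/4Z, CYP11B or CYP26A/26C cluster. Hep3B had 4.65 summits per Mb over the whole genome. At that density these spans, from 17.1 kb (CYP26A/26C) to 392 kb (CYP4A/4B/4X/4Z), are so short that an empty one says little.

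Lists of where P450 genes are expressed were drawn up from general knowledge, with earlier results of these data known. They divided the liver counts further. Of 29 genes abundant in mouse liver, 25 (86.2%) had a liver summit within 1 kb and all 29 had one within 10 kb. The shares of all genes were 26.7% and 41.8%. The 4 without one within 1 kb were Cyp2a5, Cyp2b10, Cyp4f13 and Cyp7b1. Of 16 genes expressed mainly outside the liver, 1 (6.25%) had a liver summit within 1 kb, the vitamin D 24-hydroxylase Cyp24a1, 351 bp upstream with a −log10 p of 10.9. The mouse list leaves out Cyp17a1, which has the strongest liver summit of all members, while the human list holds CYP17A1. With Cyp17a1 added, a choice made after seeing the data, the count was 2 of 17 (11.8%). Aromatase (Cyp19a1), side-chain cleavage enzyme (Cyp11a1) and 1-alpha-hydroxylase (Cyp27b1) had their nearest liver summit 36932, 75781 and 22228 bp away. The adrenal 21-hydroxylase Cyp21a1 had a summit 4129 bp upstream with a −log10 p of 17.8. In MEF, 5 of the 29 liver genes (17.2%) and 4 of the 16 others had a summit within 1 kb. Both shares lay below the 55.4% of all genes in MEF. In Hep3B, 2 of 21 human liver genes (9.52%), CYP39A1 and CYP51A1, had one, as did 2 of 16 others (12.5%), CYP26B1 and CYP46A1. The share of all genes there was 44.4%. CYP1A2, CYP2E1, CYP3A4 and CYP2D6, which are among the main drug-oxidising enzymes of human liver, had no Hep3B summit within 10 kb.

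Among genes known to be higher in female mouse liver, 4 of 11 (36.4%) had a liver summit within 1 kb and 10 within 10 kb. The shares of all genes were 26.7% and 41.8%, so the count within 1 kb lay near that of all genes. The 4 were Cyp2c40, Cyp2c69, Cyp17a1 and Cyp39a1, and the genes without were Cyp2a4, Cyp2b9, Cyp2b13, Cyp3a16, Cyp3a41a, Cyp3a41b and Cyp3a44. Of 5 genes known to be higher in males, 4 had one (Cyp2d9, Cyp2u1, Cyp4a12a and Cyp4a12b) and Cyp7b1 did not. Sex was not analysed here. Several genes of these lists are close copies in which reads are hard to place. Of 3 genes induced through the aryl hydrocarbon receptor, Cyp1a1 and Cyp1a2 had a liver summit within 1 kb and Cyp1b1 had none, the reverse of MEF. Of 5 genes induced through the receptors CAR and PXR, 4 had one (Cyp2c29, Cyp2c37, Cyp2c55 and Cyp3a11) and Cyp2b10 did not, and none of the 5 had one in MEF. All 4 Cyp4a genes on the list for the fatty acid receptor PPARα had one in liver and none did in MEF. These lists are small, and over all genes the share within 1 kb was 26.7% in liver and 55.4% in MEF.

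The P450 partners and regulators had summits in more than 1 list. Of 8 partner genes, which supply electrons or haem, 7 had a summit within 1 kb in liver, 7 in MEF and 6 in Hep3B, where 26.7%, 55.4% and 44.4% of all genes had one. Por, the reductase of nearly all P450 enzymes, had a liver summit 95 bp upstream with a −log10 p of 15.3 and a MEF summit 14 bp downstream, while the Hep3B summit nearest to POR was 1388 bp upstream. Fdxr, which feeds the mitochondrial P450 enzymes, had a summit 69 bp upstream in both mouse lists and 48 bp upstream in Hep3B. Of 8 regulators, 8 had a liver summit within 1 kb, 5 a MEF summit and 3 a Hep3B summit, the last 2 counts lying near the shares of all genes. Nr1i2, which encodes PXR, had its nearest summit 191 bp upstream in liver and 46139 bp away in MEF. Hnf4a had a summit 3 bp upstream in liver, 4387 bp upstream in MEF and 14928 bp downstream in Hep3B.

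By the same symbol in mouse and human, 24 members could be followed across all 3 lists. Summits within 1 kb in all 3 were found at 3 of them: CYP2R1, CYP2U1 and CYP39A1. CYP20A1, CYP26B1 and CYP46A1 had one in MEF and Hep3B and not in liver. CYP1A1 had one in liver and Hep3B and not in MEF. CYP1A2, CYP2E1, CYP17A1 and CYP24A1 had one in liver alone, CYP1B1, CYP2S1 and CYP7B1 in MEF alone, and none had one in Hep3B alone. The other 10, among them CYP11A1, CYP19A1 and CYP27B1, had none in any list. Cyp51 and CYP51A1 have different symbols and are not in this count, but the gene had a summit within 1 kb in each list: 469 bp upstream in liver, 103 bp downstream in MEF and 100 bp upstream in Hep3B.

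Promoter sequence differed between the members counted in each list. The CpG ratio is the number of CpG dinucleotides within 500 bp of the outermost start, divided by the number that its C and G content would give. Over all members the median ratio was 0.15 in mouse and 0.197 in human, against 0.552 and 0.689 over all genes. The 49 members with a liver summit within 1 kb had a median ratio of 0.131 and the 48 without had 0.153, whereas all genes with a liver summit had 0.701 and those without 0.443. In MEF the 14 members with a summit had a median of 0.6 and the 83 without 0.133, against 0.732 and 0.213 over all genes. In Hep3B the 8 members with a summit had 0.771 and the 45 without 0.172, against 0.772 and 0.495 of all genes. In liver both groups of members thus had low medians, and in the other lists the members with a summit had the higher median.

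**Figure D5:**
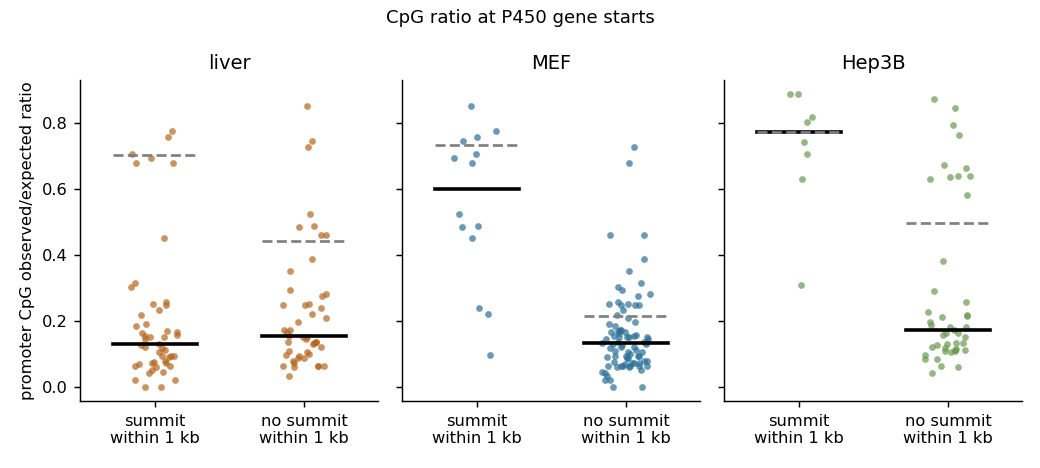
Promoter CpG observed/expected ratio (vertical axis) of P450 genes with and without a summit within 1 kb, for each list. Points are genes, spread sideways for legibility, black lines are member medians and dashed grey lines are medians of all protein-coding genes in the same class. Members with a liver summit have a median of 0.131, far under the 0.701 of all genes with one, and members with a MEF or Hep3B summit have medians of 0.6 and 0.771.

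Since CpG content moves with the counts in MEF and Hep3B, the members were also set beside genes of like CpG ratio. Below a ratio of 0.5, which holds 87 of the 97 mouse members, 43 (49.4%, interval 39.2 to 59.7%) had a liver summit within 1 kb, against 14.9% of all genes of that class. At 0.5 or above, 6 of 10 (60.0%, interval 31.3 to 83.2%) had one, against 36.8%. In MEF the low class gave 6 of 87 (6.9%, interval 3.2 to 14.2%), against 20.0%, and the high class 8 of 10 (interval 49.0 to 94.3%), against 86.0%. In Hep3B the low class gave 1 of 35 (2.86%, interval 0.506 to 14.5%), against 16.0%, and the high class 7 of 18 (38.9%, interval 20.3 to 61.4%), against 58.5%. In the low class the interval lay above the share of all genes in liver and below it in MEF and Hep3B. In the high class, with 10 mouse and 18 human members, the interval covered the share of all genes in all 3 lists. The classes were chosen after the counts were seen.

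Sequence words were counted on both strands within 75 bp of each summit. CAAAGTCCA was in 6 of the 64 liver peaks within 1 kb of a member start (9.38%), against 1.88% of all liver peaks and 1.08% of all liver peaks within 1 kb of a protein-coding start. The carriers were peaks at Cyp2c40, Cyp2c68, Cyp2c69, Cyp2c70, Cyp3a11 and Cyp4f14, the last 916 bp downstream of the start. Of the 6, 4 are genes of the Cyp2c cluster, printed above, and the Cyp2c40 and Cyp2c69 windows share a run of 72 bases. The 6 therefore do not all count as separate cases. A related word, CAAAGGTCA, which contains AGGTCA, was in 2 of the 64 (3.12%), at Cyp3a57 and Cyp3a59, against 1.72% of all liver peaks and 0.676% of promoter peaks. AGGTCA was in 12 of the 64 (18.8%), among them Cyp17a1, Cyp2c29 and Cyp2f2, against 21.8% of all liver peaks and 13.3% of promoter peaks. None of the 14 MEF or 8 Hep3B member peaks held CAAAGTCCA, a word found in 0.212% and 0.299% of all peaks there.

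The other words were counted in the same way. CCAAT, bound by NF-Y, was in 19 of the 64 liver member peaks (29.7%, against 20.7% of all liver peaks and 18.9% of promoter peaks), 5 of 14 in MEF (35.7%, against 22.9% and 25.5%) and 2 of 8 in Hep3B (against 23.8% and 26.4%). The HNF1 half-site GTTAAT was in 4 liver member peaks (6.25%, against 6.66% of all and 4.09% of promoter peaks). The C/EBP word TTGCNNAA was in 5 (7.81%, against 13.2% and 8.56%) and the ONECUT and CUX word ATCGAT in 1 (1.56%, against 1.65% and 1.14%). A PROX1 consensus, a short run of letters allowed 2 mismatches, was in 2 liver member peaks, at Cyp2c40 and Cyp3a11. That is 3.12%, against 3.22% of all liver peaks and 4.15% of promoter peaks. The consensus was in no MEF or Hep3B member peak within 1 kb. It stood in for the motif matrix with which the paper found PROX1 motifs, which was not available here. These shares are therefore not those of peaks with the PROX1 motif as the paper defines it. A match of letters is not a binding site, and no match says only that the letters are not in the window.

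Many P450 genes are close copies, and reads that fit several places were filtered by mapping quality. As a measure of this, the 40-base words within 1 kb of the start nearest to a summit were counted in the genome. At Cyp3a41a 14.4% and at Cyp3a41b 13.4% of words occurred once, at Cyp4a12a 33.7%, at Cyp4a12b 34.7%, at Cyp2a4 40.8%, at Cyp2a5 41.7%, at Cyp2b13 45.9% and at Cyp2b9 49.5%. All of these except the Cyp4a12 pair lacked a liver summit within 1 kb. Cyp2c69, at 51.8%, had one. At 80% or more unique words, 36 of 70 mouse members (51.4%) had a liver summit within 1 kb, and under 80%, 13 of 27 (48.1%) did. The same split gave 13 of 70 (18.6%) and 1 of 27 (3.7%) in MEF, and 8 of 43 (18.6%) and 0 of 10 in Hep3B. The part of read placement in single missing summits, such as those of the Cyp3a41 and Cyp2b genes, was not tested, since read pairs and mapping quality cannot be read from the peak lists.

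Liver summits at P450 genes were not confined to starts. In all, 244 liver peaks lay within 10 kb of a member start or inside a member, of which 64 were within 1 kb. By position, 125 (51.2%) were intergenic, 103 (42.2%) in introns, 9 (3.69%) in UTRs and 7 (2.87%) in coding exons. MEF had 45 such peaks, of which 23 (51.1%) were in introns, and Hep3B had 20. The nearest summit lay between 1 and 10 kb for 20 members in liver. Among them Cyp2c66 had one with a −log10 p of 19.8, Cyp2d34 one of 18.3 and Cyp2g1, a P450 of the nasal lining, one of 16.8 that was 7745 bp upstream. Cyp26a1, the main retinoic acid hydroxylase of liver, had 4 summits within 10 kb, the nearest 1325 bp upstream with a −log10 p of 9.26. In liver, 25 members had no summit within 10 kb or in the body, against 73 in MEF and 40 of 53 in Hep3B.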

How the data were processed

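CUT&RUN libraries of 22 samples in 6 groups were processed by the authors with nf-core/cutandrun: Trim Galore 0.6.6, Bowtie2 2.4.2 to mm10 or hg38, and Genrich 0.6.1 at a q-value limit of 0.3, which pooled the replicates of each antibody group. That limit is the one the study states. Every listed peak was stricter, with a lowest −log10 q of 4.03 in liver, 1.16 in MEF and 1.22 in Hep3B. The smallest area also differed, at 500 in liver and 200 in the others. Whether all 3 lists were called at the same setting is therefore not known, and they may differ in threshold. The study describes its binding sites as compared with IgG, but the caller setting for this is not given in the sources used here. The 3 deposited lists give a peak score, a signal (the area of the peak), a −log10 p and −log10 q at the summit and the summit position, and IgG has no list of its own here. Depth per sample is unknown, so counting intervals cover genes, not reads.

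Summits were assigned to starts of protein-coding transcripts and gene bodies of GENCODE M21 (mouse) and 44 (human), with windows of 1 and 10 kb, in Python with pandas and numpy, read-pair placement not being modelled. Members, substrate classes and gene lists were chosen with earlier results of these data known, the lists from general knowledge. Genes were named if on a list, among the 10 strongest summits within 1 kb of a list, shared between lists by symbol, or next to the 1 kb limit on either side. Within a cluster, members without a summit within 10 kb were named where 5 or fewer, as were those with one where 5 or fewer. Other genes named by class are examples chosen after their values were seen. Clusters join members within 250 kb. Alternatives were q-value limits of 0.05 and 0.01, an area of at least 500, an equal number of top peaks, other starts, windows and gaps, and any base of the peak. The CpG classes, the limit on unique words and Cyp17a1 on the mouse list of genes outside the liver were added after seeing the data. The code for distances, windows, clusters and words was tested on simulated data, with 17 of 17 checks met. No statistical test was run.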

Additional observations from a re-analysis of the deposited data

How the results depend on the processing

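The counts of members stayed within 1.5 times of the reported value under the q-value limits, other sets of starts, other windows and any base of the peak. The same held without the read-through gene (CYP3A7-CYP3A51P). In liver the q-value and area limits could change nothing. The lowest −log10 q there was 4.03 and the smallest area 500, so all 50159 peaks stayed. A q-value limit of 0.05 kept 40497 of 40531 MEF and 14366 of 14369 Hep3B peaks, and 0.01 kept 35211 and 12577. With peaks of area 500 or more in every list, the MEF counts became 8 within 1 kb, 14 within 10 kb and 7 in the body, and the Hep3B counts 5, 7 and 4. The shares of all genes fell too, to 45.2, 53.0 and 29.3% in MEF and 27.2, 31.8 and 16.0% in Hep3B. With the 14369 strongest peaks of each list, the liver counts became 25, 42 and 20 and the MEF counts 8, 13 and 6. In liver 25.8, 43.3 and 20.6% of members then stood against 4.99, 16.2 and 15.2% of all genes, so the body shares lay closer together. In MEF 8.25, 13.4 and 6.19% stood against 34.0, 44.1 and 24.6%. Restricted to members of CpG ratio below 0.5, a choice made after seeing the data, the MEF counts were 6 within 1 kb and 14 within 10 kb, and the Hep3B counts 1, 4 and 2 in the body, by construction over fewer genes. With Cyp17a1 added to the mouse list of genes outside the liver, also chosen after seeing the data, 2 in place of 1 had a liver summit within 1 kb. A gap of 100 or 500 kb gave 16 or 10 mouse clusters in place of 11, and 11 or 9 human clusters in place of 9. No paired analysis was possible because each list pools its replicates, and for the same reason no replicate could be left out.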
